A study of Mus musculus with 4 samples.

Results

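Chromatin accessibility at 10 genes of the NF-kB pathway was examined in the nuclei of mouse inguinal white adipose tissue (iWAT), with dendritic cells as the cluster of interest. The genes were the subunits Nfkb1, Nfkb2, Rel, Rela and Relb, the IkB proteins Nfkbia, Nfkbie and Nfkbiz, the feedback inhibitor Tnfaip3 and the kinase Ikbkb. They were taken by name and not by a cutoff on a measured value, but with earlier results of these data known. They are 10 of the 17173 protein-coding genes that held at least 1 peak of the single-nucleus ATAC-seq (snATAC-seq) data. Each gene was given the peaks on its body and on the 2000 bases upstream of its start (mm10), which made 71 peaks for the 10 genes, none of them shared with another protein-coding gene. Nfkb1 held 27 of these peaks and Rela 1, and for Rel, Relb and Nfkbia no peak held the annotated gene start.

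NF-kB proteins are dimeric transcription factors that bind short GC-rich sites called kB elements. In resting cells the dimers are held in the cytoplasm by IkB proteins, and receptors for cytokines or microbial products activate the IkB kinase complex, whose catalytic subunit Ikbkb marks the IkB proteins for degradation. A slower branch processes the Nfkb2 precursor and releases dimers with Relb, and that branch is best known from dendritic cells and other antigen-presenting cells, where it accompanies maturation. Several members are themselves NF-kB targets, among them Nfkbia and Tnfaip3, which close negative feedback loops.

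The nuclei came from 8-week-old male C57BL/6J mice, 3 in each of 7 groups. The day0RT mice stayed at room temperature (22 °C). The cold groups day1C, day3C and day7C were kept at 6.5 °C for 1, 3 or 7 days, and the groups day1CL, day3CL and day7CL received 1 mg/kg of CL-316,243 (CL), an agonist of the β3-adrenergic receptor, for the same times. All groups share the strain, sex and age, and the cold and CL comparisons use the same day0RT mice. The mouse and the cell type of each of the 32552 nuclei were taken from the deposited annotation, which names 12 clusters, and no cell barcode occurred in more than 1 mouse.

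The values are counts of nuclei with a read in a peak, since the deposited matrix is binary. A gene sums them over its peaks, so that a nucleus counts once for each of these peaks with a read. A library is the sum for 1 mouse and 1 cluster, and levels are given in CPM, which scales the counts of a gene to the total over all peaks of that library. Libraries of at least 10 nuclei entered, 223 in all. Dendritic cells were 677 nuclei, or 2.08% of the total, and 17 mice had at least 10 of them, with 10 to 154 nuclei and 12011 to 255314 counts a library, so that in the shallowest library a single count was worth 83.3 CPM. The day0RT mice held 110, 154 and 44 of these nuclei and had the deepest dendritic libraries. Deeper libraries weigh more in the fits between clusters, which therefore lean on the untreated mice. In 3 mice, 1 each of day1CL, day3CL and day3C, lymphocytes were 11.9% to 36.8% of the nuclei, against 58.2% to 90.8% in the other mice. None of these 3 mice had 10 dendritic nuclei, so their dendritic cells enter no comparison, and the results without all 3 mice are given below.

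The dendritic label was checked against 10 dendritic markers. Of the 8 that could be tested, Itgax and Batf3 passed the filter on low counts only through their dendritic libraries. Of the other 6, 4 were more accessible than in the mean of the other clusters and none less, among them Flt3, a receptor for dendritic growth signals (log2 fold change 2.78 ± 0.10, adjusted p = 6.2e-92). Of all genes that did not pass only through dendritic libraries, 20.8% were higher and 20.2% lower. The authors built and named the clusters from the accessibility of the same nuclei, so this check is not independent of the label. Against macrophages the picture was mixed. Flt3, Zbtb46 and Ccr7 were higher in dendritic cells, whereas Irf8 (102 against 230.3 CPM) and Clec9a (30.6 against 61.7 CPM) were higher in the cluster annotated as macrophages. The sum of the 10 dendritic markers ranged from 739 to 1446 CPM in dendritic libraries and from 407 to 1120.0 CPM in macrophage libraries, and the sum of 10 macrophage markers from 163 to 456 and from 407 to 900 CPM. No dendritic or macrophage marker was at 0 in either cluster. The sum of 3 endothelial markers was 81.5 to 249.8 CPM in dendritic and 209 to 622 CPM in macrophage libraries. The B cell, T cell, adipocyte and progenitor marker sums overlapped between the clusters, and natural killer markers had a median of 11.8 CPM in dendritic libraries. Of these 3 markers 1, Ncr1, holds no peak and is therefore at 0 in every cluster. The part of these markers in the comparison of both clusters was not tested.

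Promoter sequences are shown first, since several members are known targets of NF-kB. RefSeq promoters (GRCm38.p6, 250 bases upstream of the RefSeq start) were found for 6 of the genes, namely Nfkb2, Nfkbia, Nfkbie, Rel, Rela and Tnfaip3. They were searched on both strands for the NF-kB consensus, for AP-1 (TGANTCA) and for PU.1 (GAGGAAGT). The NF-kB consensus was present in 5 of the 6, all but Rela, and in 7.25% of the 32851 promoters of that length. Overlapping matches were counted separately, so that a near-palindromic site can count more than once. The stretches below end at or within 1 base of the RefSeq start and leave out annotated untranslated bases. For Nfkb2 a longer transcript covers the window, so only 30 bases around its 2 overlapping matches are given. Capitals mark the NF-kB matches, and the strand is that of the gene.
Nfkb2 (chr19:46304689-46304718, + strand): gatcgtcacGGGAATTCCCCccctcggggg
Nfkbia (chr12:55492648-55492797, - strand): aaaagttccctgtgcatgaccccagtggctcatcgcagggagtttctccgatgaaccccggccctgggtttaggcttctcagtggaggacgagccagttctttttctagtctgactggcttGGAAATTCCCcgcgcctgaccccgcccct
Nfkbie (chr17:45555550-45555699, + strand): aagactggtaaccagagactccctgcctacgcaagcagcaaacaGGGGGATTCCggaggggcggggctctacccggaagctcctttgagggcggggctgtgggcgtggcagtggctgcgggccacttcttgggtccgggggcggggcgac
Rel (chr11:23770971-23771119, - strand): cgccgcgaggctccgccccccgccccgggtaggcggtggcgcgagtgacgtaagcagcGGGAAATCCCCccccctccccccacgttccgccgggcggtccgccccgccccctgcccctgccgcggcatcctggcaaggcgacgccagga
Tnfaip3 (chr10:19015411-19015547, - strand): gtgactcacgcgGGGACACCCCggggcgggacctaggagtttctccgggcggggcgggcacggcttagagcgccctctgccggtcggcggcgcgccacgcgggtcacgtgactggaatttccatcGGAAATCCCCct

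The matches began 39, 38 and 11 bases upstream of the RefSeq start in Nfkb2, 29 bases upstream in Nfkbia, 106 in Nfkbie, 92 and 91 in Rel, and 125 and 12 in Tnfaip3. For Nfkb2 and Tnfaip3 the stretches shown lie inside the gene body, downstream of the gene start used for the peaks. The upstream bases of Nfkbie and Tnfaip3 also held an AP-1 match and those of Rel a PU.1 match, which occurred in 6.75% and 2.44% of all promoters. A match is a run of letters and not evidence of binding.

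A second set of sequences comes from peaks away from the gene starts. Over the central 200 bases of a peak the NF-kB consensus was present in 5 of the 71 member peaks (7.04%) and in 6.49% of 189597 peaks, so the members' peaks as a whole held it about as often as any peak. The 3 of these 5 centres that lie away from a gene start are given here, together with an Ikbkb peak that holds an AP-1 match and was chosen after its values were seen, because it was near 0 outside dendritic cells. An AP-1 match was present in 7 of the 71 member peak centres (9.86%) and in 9.12% of all peak centres. Capitals mark the NF-kB matches in the first 3 sequences and the AP-1 match in the last, all on the + strand of GRCm38.p6.
Rel, 16.5 kb from the start, intron (chr11:23754355-23754554): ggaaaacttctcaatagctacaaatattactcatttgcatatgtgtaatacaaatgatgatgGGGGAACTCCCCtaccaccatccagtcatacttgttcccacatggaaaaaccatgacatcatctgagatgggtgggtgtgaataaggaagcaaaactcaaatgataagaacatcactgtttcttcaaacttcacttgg
Ikbkb, 1.67 kb from the start (chr8:22704816-22705015): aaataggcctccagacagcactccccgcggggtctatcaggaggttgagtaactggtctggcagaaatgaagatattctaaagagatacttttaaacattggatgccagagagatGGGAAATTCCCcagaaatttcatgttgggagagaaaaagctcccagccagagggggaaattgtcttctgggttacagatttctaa
Nfkb1, 51.2 kb from the start, intron (chr3:135640269-135640468): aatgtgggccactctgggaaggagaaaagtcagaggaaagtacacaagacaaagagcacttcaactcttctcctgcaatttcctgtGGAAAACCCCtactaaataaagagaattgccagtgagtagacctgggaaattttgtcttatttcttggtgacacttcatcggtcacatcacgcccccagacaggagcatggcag
Ikbkb, 13.2 kb from the start (chr8:22693253-22693452): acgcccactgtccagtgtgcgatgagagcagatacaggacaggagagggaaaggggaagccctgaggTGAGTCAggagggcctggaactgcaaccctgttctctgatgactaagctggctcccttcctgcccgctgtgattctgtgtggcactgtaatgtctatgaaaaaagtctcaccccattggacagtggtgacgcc

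Across the 12 clusters, dendritic cells had the highest mean level of Rel, Relb, Nfkbie, Tnfaip3 and Ikbkb. They ranked 2 for Nfkb2 and Rela, 3 for Nfkb1, 5 for Nfkbia and 6 for Nfkbiz. Only for Ikbkb and Tnfaip3 was the gap to the next cluster larger than the SD of the mice in both clusters. The levels of each gene are compared between clusters here, and not between genes, because the genes differ in how many peak bases they hold.

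Ikbkb (chr8:22659212-22706589, - strand), is the catalytic kinase. Its level in dendritic cells was 193 ± 72.6 CPM (SD, n = 17 mice) and ranged from 0 over a median of 203 to 318 CPM over mice. The next clusters were vascular endothelial cells (VEC) with 88.5 ± 61.6 CPM, CD4 T cells with 87.9 ± 17.9 CPM and macrophages with 87.7 ± 28.4 CPM, and these 3 did not differ beyond their spread. White adipocytes had 35.1 ± 6.60 CPM and beige adipocytes 22.2 ± 11.9 CPM. Within single mice, dendritic cells were above macrophages in 16 of 17. The exception was a day1C mouse with 23 dendritic nuclei and no count.

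Tnfaip3 (chr10:19000910-19015657, - strand) encodes A20, which dampens NF-kB signalling. It reached 222 ± 49.2 CPM (SD, n = 17 mice) in dendritic cells, from 128 over a median of 228 to 297 CPM. Macrophages had 166 ± 40.7 CPM and the adipose progenitor cluster APC2 164 ± 44.9 CPM, levels that did not differ beyond their spread, and B cells came next with 103 ± 13.8 CPM. In all 17 mice dendritic cells lay above the mean of the lymphocyte clusters and above the mean of the other clusters, and in 14 of 17 above macrophages.

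Rel (chr11:23736847-23770970, - strand) encodes c-Rel, a subunit found mainly in haematopoietic cells. It was 74.1 ± 38.7 CPM (SD, n = 17 mice) in dendritic cells, 62.3 ± 14.7 CPM in B cells, 48.7 ± 24.1 CPM in T cells and 47.9 ± 24.8 CPM in macrophages, an order in which neighbours did not differ beyond their spread. White adipocytes had 9.64 ± 4.56 CPM and the progenitor cluster APC1 4.32 ± 9.94 CPM. Over the dendritic libraries Rel ranged from 0 over a median of 78.3 to 163 CPM.

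Relb (chr7:19606217-19629438, - strand), the partner of the processed Nfkb2 product, was sparse. Dendritic cells had 59.4 ± 39.1 CPM (SD, n = 17 mice), B cells 35.5 ± 7.74 CPM, macrophages 17.6 ± 14.0 CPM and CD8 T cells 10.4 ± 8.06 CPM. Dendritic cells were above macrophages in 16 of 17 mice. The gap between dendritic and B cells was smaller than the SD among dendritic libraries, which ranged from 0 over a median of 48.2 to 163 CPM.

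Nfkb1 (chr3:135584655-135691547, - strand) and Nfkb2 (chr19:46304320-46312385, + strand) encode the precursors of p50 and p52. Nfkb1 was 277 ± 104 CPM (SD, n = 17 mice) in dendritic cells, 293 ± 80.8 CPM in T cells, 282 ± 23.6 CPM in B cells and 238 ± 70.1 CPM in macrophages, without a gap beyond the spread among them, and 74.1 ± 23.6 CPM in white adipocytes. Nfkb2 was 137 ± 52.7 CPM (SD, n = 17 mice) in dendritic cells, 145 ± 26.9 CPM in B cells and 117 ± 48.3 CPM in macrophages. Rela (chr19:5637483-5648130, + strand), the widely expressed activating subunit, ran from 73.0 ± 45.9 CPM in VEC through 66.5 ± 30.4 CPM in dendritic cells to 28.4 ± 13.6 CPM in beige adipocytes.

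Among the IkB proteins, Nfkbie (chr17:45555703-45563169, + strand), which encodes IkB epsilon, was 141 ± 41.4 CPM (SD, n = 17 mice) in dendritic cells, 127 ± 15.9 CPM in B cells and 108 ± 38.0 CPM in macrophages, against 15.8 ± 6.14 CPM in white adipocytes. Nfkbia (chr12:55489410-55492647, - strand), which encodes IkB alpha, was 62.4 ± 28.4 CPM (SD, n = 17 mice) in dendritic cells and lay within the spread of macrophages with 65.7 ± 23.6 CPM and CD4 T cells with 72.5 ± 19.4 CPM. Nfkbiz (chr16:55811375-55838899, - strand), a nuclear IkB protein, was highest in the T cell clusters, with 222 ± 45.5 CPM in T cells and 212 ± 57.2 CPM in CD4 T cells, and 139 ± 70.7 CPM (SD, n = 17 mice) in dendritic cells.

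**Figure D1:**
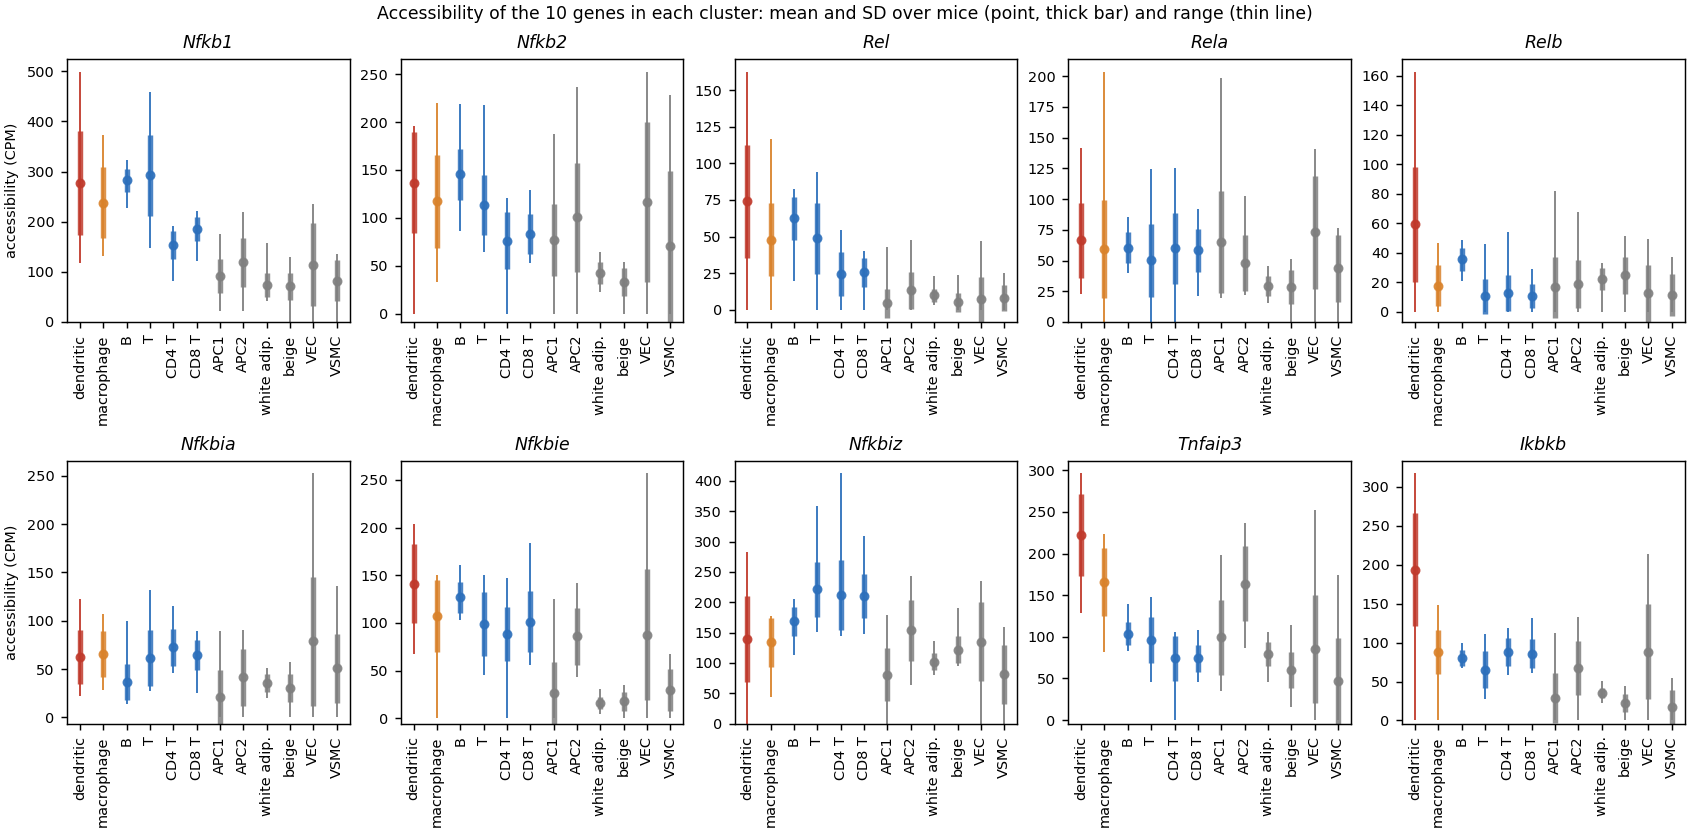
Accessibility of the 10 genes in CPM (vertical axis) in the 12 clusters (horizontal axis). Points are means over mice, thick bars the SD and thin lines the range, with dendritic cells in red, macrophages in orange, lymphocytes in blue and other clusters in grey. Ikbkb is at 193 CPM in dendritic cells against 88.5 CPM in the next cluster, while Nfkbiz is highest in T cells.

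The differences were then tested in one edgeR quasi-likelihood fit over all clusters, with the mouse as a block and Benjamini-Hochberg adjustment over 10779 genes. The clusters had been built by the authors from the same peaks, so these tests measure how far the genes stand apart relative to the spread of mice and are not independent of the clustering. The filter on low counts passed 9 of the 10 members and removed Relb. It asks for 104 CPM in at least 5 libraries, here scaled to the summed counts of all genes in a library. The CPM values printed for each mouse are scaled to the total over all peaks and cannot be held against this level. On the scale of the filter, Rel passed only through its dendritic libraries, 6 of the 9 that reached this level, as did 317 genes in all. Such a gene needed its dendritic libraries to enter, which favours a call. Rel is therefore left out of the counts and its values come from the fit without the filter, further down. Differences are fitted log2 fold changes with their SE, dendritic cells minus the comparator. They come from a fit on counts with TMM-scaled library sizes and a prior count. They can therefore differ from the ratio of the mean CPM values printed.

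Against the mean of the other 11 clusters 6 of these 8 members were higher in dendritic cells and none was lower (7 of 9 with Rel). Of all genes, 21.6% were higher and 19.6% lower, and 20.8% and 20.2% without the 317. The largest difference was that of Ikbkb (1.68 ± 0.11, adjusted p = 2.3e-39). Tnfaip3 (1.19 ± 0.10, adjusted p = 9.6e-26) and Nfkbie (1.17 ± 0.12, adjusted p = 1.9e-19) followed. Nfkb1 (0.74 ± 0.10, adjusted p = 7.8e-12) and Nfkb2 (0.72 ± 0.12, adjusted p = 2.3e-08) differed by less. Nfkbia passed narrowly (0.38 ± 0.18, adjusted p = 0.041) and lost its call without any 1 of 6 mice, such as a day0RT mouse without which it was 0.28 with an adjusted p of 0.204. Rela (0.26 ± 0.17, adjusted p = 0.161) and Nfkbiz (0.06 ± 0.12, adjusted p = 0.685) were not called. With DESeq2, which differs in size factors, dispersion and test, the share of calls that were higher moved from 52.4% to 71.6% over all genes (45.8% to 62.1% against macrophages, 46.5% to 62.3% against lymphocytes), with the median of all genes at 0.14 in place of -0.04. By edgeR without TMM this share was 59.2%, with the median at 0.015 (46.1% against macrophages, 51.2% against lymphocytes). In the fit on day 0 alone it was 88.6%, with the median at 0.19 (56.6% against macrophages, 59.8% against lymphocytes).

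In the fit without the filter on low counts, Relb was 1.35 ± 0.20 against the other clusters (adjusted p = 1.7e-12), 1.16 ± 0.29 against macrophages (adjusted p = 2.0e-05) and 1.51 ± 0.21 against lymphocytes (adjusted p = 2.2e-15). Rel was 1.70 ± 0.19 (adjusted p = 3.8e-23), 0.58 ± 0.21 (adjusted p = 0.018) and 0.92 ± 0.16 (adjusted p = 1.1e-08) in the same fit, which covers 17173 genes, most of the added ones with few counts.

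Macrophages are the other myeloid cluster. Against them 3 of the 8 members were higher and none lower (4 of 9 with Rel). Of all genes, 10.6% were higher and 12.6% lower, and 10.03% and 12.91% without the 317. The members higher than in macrophages are given next. Without Rel they were Ikbkb (1.13 ± 0.15, adjusted p = 2.2e-13), Tnfaip3 (0.47 ± 0.13, adjusted p = 9.7e-04) and Nfkbie (0.37 ± 0.15, adjusted p = 0.046). The call of Nfkbie did not hold without any 1 of 10 mice, with an adjusted p of up to 0.110. Without the 3 mice of few lymphocytes it was 0.35 (adjusted p = 0.069), and Nfkb2 was 0.40 (adjusted p = 0.039) in place of 0.34 ± 0.15 (adjusted p = 0.075). The values of Nfkb1, Nfkbia, Nfkbiz and Rela lay between 0.0057 and 0.12.

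Against the mean of the 4 lymphocyte clusters 4 of the 8 members were higher and 1 lower (5 and 1 of 9 with Rel). Of all genes, 24.3% were higher and 27.9% lower, and 23.65% and 28.55% without the 317. Ikbkb (1.29 ± 0.10, adjusted p = 4.2e-28) and Tnfaip3 (1.29 ± 0.10, adjusted p = 1.9e-29) differed most, followed by Nfkbie (0.50 ± 0.11, adjusted p = 4.3e-05) and Nfkb2 (0.47 ± 0.12, adjusted p = 1.7e-04). Nfkbiz was lower (-0.35 ± 0.11, adjusted p = 0.0028). Over promoter peaks alone its direction turned (0.54, adjusted p = 0.0076). Nfkb1 was 0.20 ± 0.10 (adjusted p = 0.056) and passed in 15 of the 21 fits that left out 1 mouse.

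**Figure D2:**
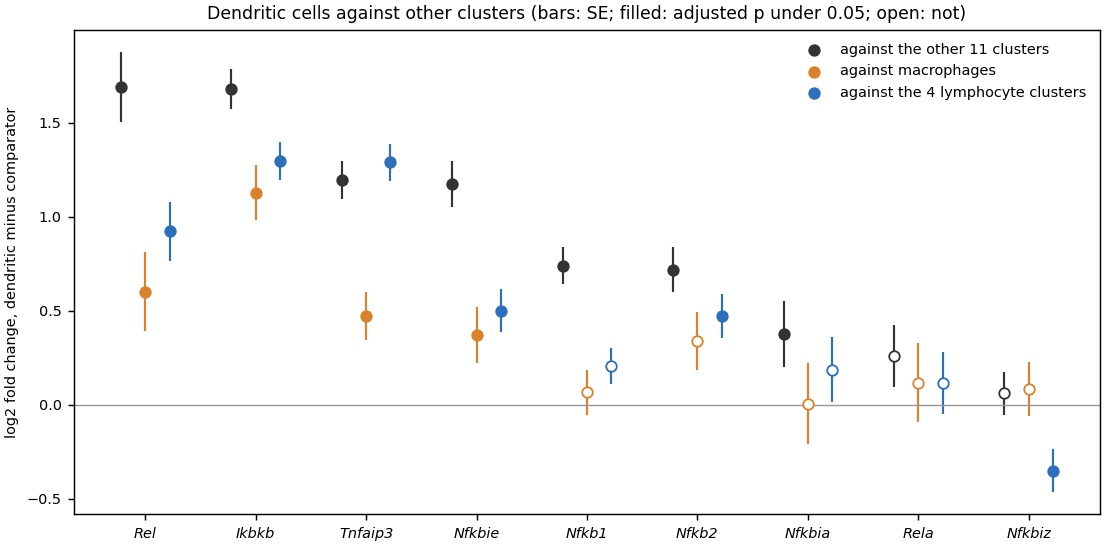
log2 fold change of dendritic cells (vertical axis) for the 9 members tested (horizontal axis), against the mean of the other 11 clusters (black), macrophages (orange) and the 4 lymphocyte clusters (blue). Bars are SE, and filled points have an adjusted p under 0.05. Ikbkb, Tnfaip3, Nfkbie and Rel, which passed the filter only through its dendritic libraries, are filled in all 3 comparisons, and Nfkbiz lies below 0 against lymphocytes.

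The peaks show where on the genes the differences lie. For Ikbkb the peak at the gene start had 35.8 CPM in dendritic cells and 26.0 CPM in macrophages, and the 8 other peaks together had 158 and 61.7 CPM. For Tnfaip3 the start peak had 74.2 and 76.8 CPM and the others 148 and 89.3 CPM. For Nfkb1 the start peak was 38.4 CPM in dendritic cells and 42.9 CPM in the mean of the other clusters, and the rest 238 and 112 CPM. With only the peaks within 2000 bases of the start, 3 of 7 members were higher against the other clusters and none against macrophages, and none was lower. Of the 7377 genes tested this way, 11.7% were higher and 7.59% lower against the other clusters, and 4.31% and 4.51% against macrophages. There Ikbkb was 0.39 (adjusted p = 0.096) and Nfkb1 -0.11 (adjusted p = 0.723).

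Tested peak by peak with the same filter, 11 of the 71 member peaks could be tested among 8578 peaks. Of these 6 were higher in dendritic cells than in the other clusters and none lower (13.9% and 8.85% of all peaks), 1 was higher than in macrophages and none lower (4.84% and 7.15%), and 6 were higher than in lymphocytes and none lower (16.6% and 20.2%). The Nfkb1 peak 62.9 kb from the start passed only through its dendritic libraries, as did 477 peaks in all, and without these the counts were 5 of 10, 1 of 10 and 5 of 10 (11.3%, 3.14% and 14.1% of all peaks higher). The 1 above macrophages was the Tnfaip3 peak 6.53 kb from the start (chr10:19008496-19009751). The peak overlaps an exon and an annotated start of a shorter transcript. It had 95.1 ± 32.7 CPM in dendritic cells, with no dendritic library at 0, 57.7 ± 19.5 CPM in macrophages, 13.2 ± 5.55 CPM in B cells and 5.57 ± 4.38 CPM in CD4 T cells. Its log2 fold change was 1.55 ± 0.16, adjusted p = 3.4e-26 against the other clusters and 0.66 ± 0.20, adjusted p = 0.0033 against macrophages. That Nfkb1 peak (chr3:135628037-135629358, intron) had 54.2 ± 46.6 CPM in dendritic cells, 62.5 ± 8.45 CPM in B cells and 28.4 ± 21.4 CPM in macrophages. With the minimum count of 5 described below, which it passed without them, it was 1.54 ± 0.23, adjusted p = 5.3e-19 against the other clusters.

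The other tested peaks lay mostly at gene starts. The Nfkb2 start peak (chr19:46304103-46305213) had 84.1 ± 34.9 CPM in dendritic cells and 70.1 ± 32.8 CPM in macrophages (0.68 ± 0.15, adjusted p = 1.0e-05 against the other clusters). The Tnfaip3 start peak had 74.2 ± 34.9 CPM and 76.8 ± 31.9 CPM (0.57 ± 0.15, adjusted p = 4.9e-04), and that of Nfkbiz 45.6 ± 33.6 CPM and 33.2 ± 25.3 CPM (0.43 ± 0.20, adjusted p = 0.048). The start peaks of Nfkbie (0.42 ± 0.21, adjusted p = 0.057), Rela (0.24 ± 0.16, adjusted p = 0.251) and Nfkb1 (-0.13 ± 0.20, adjusted p = 0.663) were not called. Nor was the Nfkbia peak 3.66 kb from its start (0.27 ± 0.21, adjusted p = 0.253). That peak (chr12:55488565-55489417) lies mostly beyond the end of the gene, which is at 55489410. It is 1 of the 2 peaks of Nfkbia, so the gene values of Nfkbia rest in part on sequence outside the gene.

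A minimum count of 5 in place of 10 let 29 member peaks enter, among 38205. Now 17 were higher than in the other clusters and 1 lower (18.7% and 10.2% of all peaks), 8 were higher than in macrophages and 1 lower (7.15% and 8.69%), and 12 were higher than in lymphocytes and 5 lower (20.6% and 27%). However, 7 of the 29 passed only through their dendritic libraries, 3 of them in Ikbkb, 2 in Nfkbie and 1 each in Rel and Tnfaip3, as did 2897 peaks in all, and no test is given for them. Among the other 22, 10 were higher than in the other clusters and 1 lower (13.8% and 11.1% of the peaks left), 3 were higher than in macrophages and 1 lower (3.95% and 9.27%), and 6 were higher than in lymphocytes and 5 lower (16.02% and 28.99%). Of the 7 start peaks tested, 2 were higher than in the other clusters, none differed from macrophages, and 1 was higher and 2 lower than in lymphocytes.

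The 3 peaks above macrophages were the Tnfaip3 peak described before (0.60 ± 0.20, adjusted p = 0.0073), a peak of Nfkbie 2.54 kb from the start and a peak of Nfkbia 1.34 kb from the start. The Nfkbie peak had 45.1 ± 21.8 CPM in dendritic cells and 17.7 ± 12.8 CPM in macrophages (1.09 ± 0.31, adjusted p = 6.7e-05), while its start peak had 42.8 and 54.3 CPM and was not called. The Nfkbia peak had 26.4 ± 26.7 CPM and 7.39 ± 8.47 CPM (0.86 ± 0.47, adjusted p = 0.011). The 1 below macrophages was the Nfkb1 peak at 83.4 kb, with 34.9 ± 39.7 CPM and 42.3 ± 22.7 CPM (-0.73 ± 0.30, adjusted p = 0.011). The Nfkbiz intronic peak at 17.9 kb was the one that was lower than in the other clusters (-0.82 ± 0.47, adjusted p = 0.0039). It had 7.00 ± 9.93 CPM in dendritic cells, 38.0 ± 17.2 CPM in CD4 T cells and 27.8 ± 7.51 CPM in B cells.

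The peaks that passed only through dendritic libraries are given by their levels. They would have failed without those libraries, but libraries of other clusters could also reach the level. The Ikbkb peak 13.2 kb from the start (chr8:22693125-22693581), with the AP-1 match shown above, had 40.4 ± 27.6 CPM in dendritic cells, from 0 over 39.2 to 83.3 CPM with 3 of 17 libraries at 0, and 1.61 ± 4.69 CPM in macrophages. These are 53 and 7 counts over all mice. The highest mean of any other cluster was 2.98 CPM. It overlaps an annotated exon but no coding exon.

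The intronic Ikbkb peak 8.42 kb from the start (chr8:22697982-22698352) had 31.7 ± 33.1 CPM in dendritic cells and 13.2 ± 16.01 CPM in macrophages. The peak 1.67 kb from the start (chr8:22704715-22705118), whose centre holds the NF-kB match shown above, had 11.03 ± 18.2 CPM in dendritic cells with 9 of 17 libraries at 0, 2.91 ± 7.18 CPM in macrophages and 19.6 ± 16.9 CPM in APC2. This peak reached the level of the filter in 1 dendritic library and in 4 libraries of other clusters. A further intronic peak at 9.96 kb had 23.6 CPM in dendritic cells and 2.15 CPM in macrophages but did not pass the filter. The start peak was not called (0.16 ± 0.30, adjusted p = 0.713).

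At Rel the intronic peak 16.5 kb from the start (chr11:23754099-23754812), with 3 overlapping NF-kB matches at its centre, had 35.6 ± 28.0 CPM in dendritic cells, 16.4 ± 7.10 CPM in B cells, 9.33 ± 15.2 CPM in macrophages and 0.794 ± 1.08 CPM in white adipocytes. The Nfkb1 peak at 51.2 kb, also printed above, had 17.7 ± 21.7 CPM in dendritic cells and 2.82 ± 5.74 CPM in macrophages and did not pass the filter. The Tnfaip3 intronic peak at 3.47 kb had 27.5 ± 23.5 CPM and 7.52 ± 12.7 CPM.

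**Figure D3:**
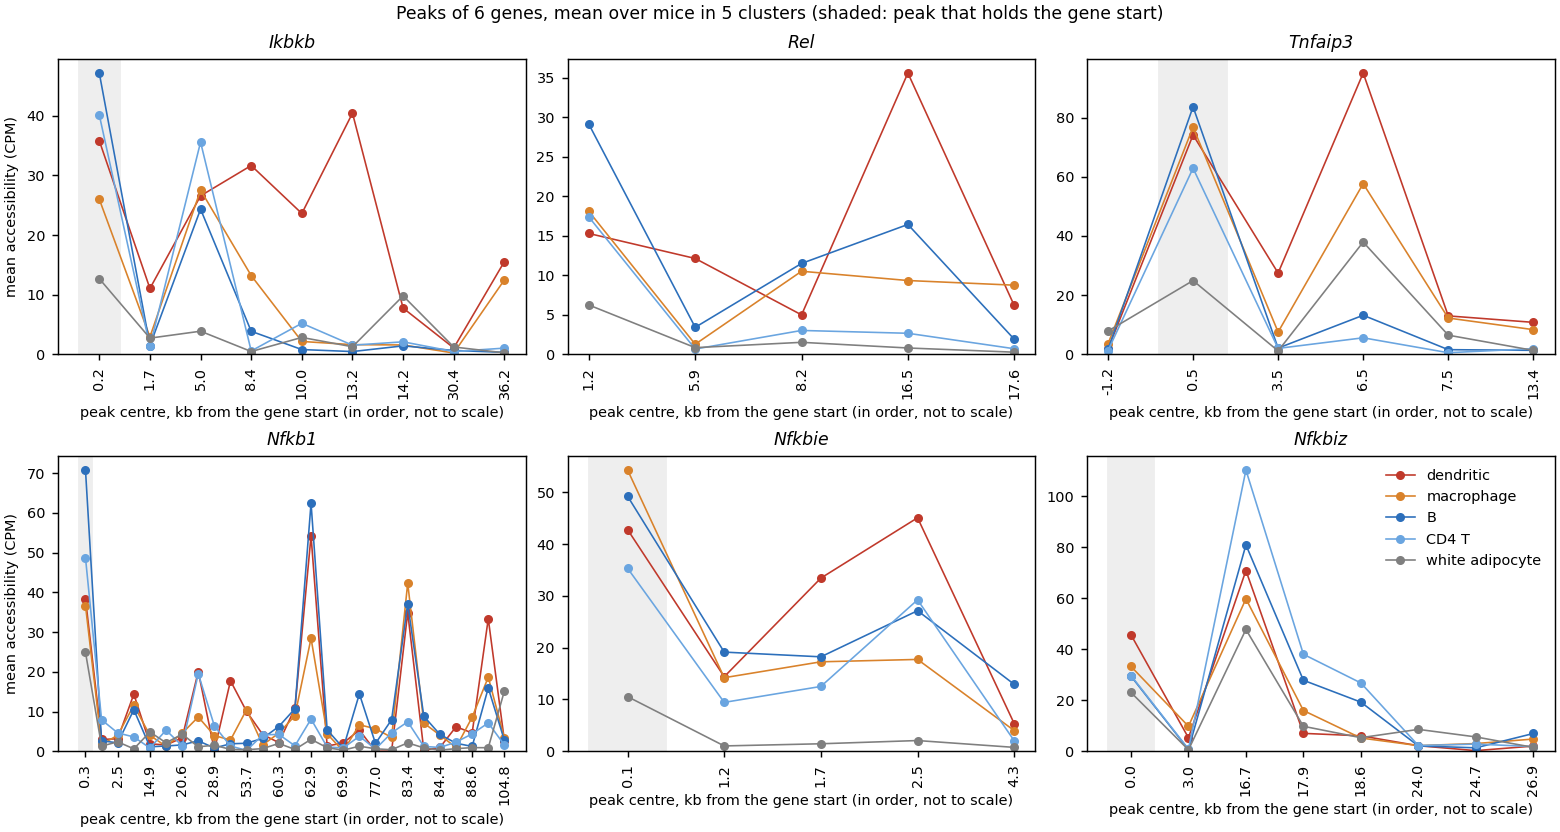
Mean accessibility in CPM (vertical axis) of the peaks of 6 genes in 5 clusters. Peaks are in order of their distance from the gene start in kb (horizontal axis, not to scale), and the shaded peak holds the start. The dendritic line rises above the others at 13.2 kb in Ikbkb, 16.5 kb in Rel and 6.53 kb in Tnfaip3, and lies among the others at the shaded starts of Ikbkb and Tnfaip3.

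The other genes of the pathway were taken from a list of 73 genes outside the members, all with a peak and 58 of them tested. In dendritic cells against the other clusters 31 were higher and 2 lower, with a median log2 fold change of 0.37, against -0.04 over all genes. Of all genes, 21.6% were higher and 19.6% lower. Of 22 receptors and adaptors 12 were higher and 1 lower, of 9 kinases 2 were higher and none lower, of 9 further inhibitors and regulators 3 were higher and none lower, and of 18 target genes 14 were higher and 1 lower. Tlr2, Tradd, Cxcl10 and Marcksl1 passed the filter only through their dendritic libraries, and without these 4 genes 28 of 54 were higher and 2 lower, with a median of 0.35. Then 11 of 20 receptors and adaptors were higher and 1 lower, and 12 of 16 target genes were higher and 1 lower. Ccr7 and Irf4 are both target genes here and dendritic markers above, so the 2 lists are not independent. The target list holds further genes of mature dendritic cells, such as Fscn1, and was fixed with earlier results of these data known. The counts of target genes, here and against macrophages, are therefore no independent evidence on NF-kB targets. The largest differences were those of Fscn1, an actin-bundling protein of mature dendritic cells (3.08 ± 0.17, adjusted p = 1.7e-68), Tnfrsf11a, the receptor RANK (2.88 ± 0.14, adjusted p = 1.3e-66), Cd40, a receptor for T cell help (2.57 ± 0.16, adjusted p = 1.1e-52), Il15, a cytokine for T and natural killer cells (2.42 ± 0.11, adjusted p = 1.7e-66), and Cd86, a costimulatory ligand (2.09 ± 0.15, adjusted p = 6.5e-42). The 5 lowest log2 fold changes by signed value among those called began with the 2 lower genes, Tnfrsf1a, a receptor for TNF (-0.59 ± 0.20, adjusted p = 0.0078), and Sod2, a mitochondrial superoxide dismutase (-0.36 ± 0.18, adjusted p = 0.0496), followed by Irak4 (0.33 ± 0.14, adjusted p = 0.037), Vcam1 (0.37 ± 0.36, adjusted p = 0.0033) and Map3k8 (0.37 ± 0.11, adjusted p = 0.0023), of which Irak4 and Map3k8 are kinases and Vcam1 is an adhesion molecule. Vcam1 and Map3k8 had higher means in macrophages, 30.1 against 23.2 CPM and 186 against 165 CPM.

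Against macrophages 18 of the 58 pathway genes were higher and 6 lower, with a median of 0.09 against -0.04 over all genes. Of all genes, 10.6% were higher and 12.6% lower. Of the target genes 8 of 18 were higher and none lower, and of the receptors and adaptors 8 were higher and 4 lower. Against lymphocytes 28 were higher and 11 lower, with a median of 0.24 against -0.09 over all genes. Here 24.3% of all genes were higher and 27.9% lower. Without the 4 genes named above, 17 of 54 were higher and 6 lower against macrophages, with 7 of 16 target genes higher and none lower. The same 54 gave 25 and 11 against lymphocytes. Of 9 further inhibitors and regulators 2 were higher and 5 lower there.

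For each member the gene with the most similar pattern of mean log2 levels over the 12 clusters was looked up among 11607 genes of at least 20 CPM. It was Lrrc8c for Ikbkb (r = 0.96), Rtn1 for Tnfaip3 (r = 0.94), Wdr48 for Rel (r = 0.96), Gga2 for Relb (r = 0.92), Hist1h1a for Nfkb1 (r = 0.97) and Snx20 for Nfkb2 (r = 0.95). For the others it was Tagln2 for Rela (r = 0.93), Lims1 for Nfkbia (r = 0.91), Tmem173 for Nfkbie (r = 0.98) and Mip for Nfkbiz (r = 0.96). These are descriptions over 12 points that share mice and depth, and the best of so many genes will be high for any pattern. None of the 10 was another member.

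The question of the treatments is whether cold or CL changed these genes within a cell type. The 3 days of a treatment were averaged and compared with day0RT in dendritic cells, macrophages, B cells, CD4 T cells, CD8 T cells and white adipocytes, 12 comparisons in all. No member was called in any of them, nor in the 6 comparisons of CL with cold. Nor was a member called in any of the 155 alternative fits, where the smallest adjusted p was 0.081.

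In dendritic cells the filter passed 1760 genes and 4 members, and none of these genes was called in either comparison (0% of the genes for cold and 0% for CL), by edgeR or by DESeq2. At an unadjusted p under 0.05 there were 111 genes for cold and 116 for CL by edgeR, and 39 and 26 by DESeq2, none of them a member in the edgeR fit. Day 3 of CL is represented by 1 mouse and day 1 of CL and day 3 of cold by 2 each. The day0RT libraries held 255314, 251078 and 119608 counts, and the deepest treated library 92067. Depth and treatment can therefore not be told apart in this cluster. The SE of the 4 members ran from 0.21 to 0.32.

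Ikbkb had 227, 247 and 209 CPM at day0RT, 0, 198 and 225 CPM at day1C, 114 and 167 CPM at day3C, 279, 244 and 228 CPM at day7C, 318 and 112 CPM at day1CL, 169 CPM at day3CL and 203, 183 and 167 CPM at day7CL. All mice of day3C, day3CL and day7CL lay below all 3 day0RT mice, while the other groups overlapped or straddled them, and the library at 0 is a day1C mouse. Its log2 fold change was -0.29 ± 0.24, adjusted p = 0.827 for cold and -0.29 ± 0.26, adjusted p = 0.866 for CL.

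Tnfaip3 had 227, 275 and 251 CPM at day0RT, 236, 226 and 128 CPM at day1C, 228 and 262 CPM at day3C, 265, 244 and 163 CPM at day7C, 212 and 224 CPM at day1CL, 153 CPM at day3CL and 136, 297 and 249.8 CPM at day7CL. The lowest values were those of 1 mouse each in day1C and day7CL, and the day0RT mice lay within the range of day7CL. Its log2 fold change was -0.18 ± 0.22, adjusted p = 0.903 for cold and -0.27 ± 0.25, adjusted p = 0.879 for CL.

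Nfkb1 had 239, 287 and 201 CPM at day0RT, 118, 169.8 and 161 CPM at day1C, 266 and 429 CPM at day3C, 181, 285 and 206 CPM at day7C, 388 and 359 CPM at day1CL, 245 CPM at day3CL and 362, 308 and 499.5 CPM at day7CL. It was highest in the day7CL library of 10 nuclei, and all 3 day1C mice were below all 3 day0RT mice. Both day1CL mice and all 3 day7CL mice were above all 3 day0RT mice. Its log2 fold change was -0.09 ± 0.21, adjusted p = 0.952 for cold and 0.32 ± 0.21, adjusted p = 0.771 for CL. Nfkbiz was -0.22 ± 0.27, adjusted p = 0.898 for cold and -0.37 ± 0.32, adjusted p = 0.820 for CL. The other 6 members, among them Rel and Relb, did not pass the filter in dendritic cells. Rel had 78.3, 87.6 and 100.3 CPM at day0RT, 88.6, 84.9 and 96.3 CPM at day1C, 0 and 71.5 CPM at day3C, 69.8, 163 and 76.0 CPM at day7C, 70.6 and 22.4 CPM at day1CL, 92.1 CPM at day3CL and 67.8, 91.3 and 0 CPM at day7CL, and Relb had 47.0, 63.7 and 33.4 CPM at day0RT, 29.5, 113 and 48.2 CPM at day1C, 76.1 and 47.6 CPM at day3C, 55.8, 163 and 65.2 CPM at day7C, 35.3 and 22.4 CPM at day1CL, 107 CPM at day3CL and 67.8, 34.2 and 0 CPM at day7CL. For both, the day0RT mice lay inside the range of the treated mice.

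Without the filter all 10 members were tested in dendritic cells, among 16460 genes. None of the members was called. Over all genes 2 were lower for cold and none for CL, and 1136 and 1086 genes had an unadjusted p under 0.05. For cold 9 of the 10 members were below 0 and Relb was above, with a median of -0.33. For CL 9 were below 0 and Nfkb1 was above, with a median of -0.38. The median of all genes was -0.09 in both, so over all genes too more lay below 0 than above. The smallest p among the members was that of Ikbkb for cold (-0.45 ± 0.25, adjusted p = 0.712). Nfkbia was -0.55 ± 0.44, adjusted p = 0.735 for cold and -0.44 ± 0.50, adjusted p = 0.827 for CL, and Relb 0.12 ± 0.43, adjusted p = 0.951 and -0.04 ± 0.52, adjusted p = 0.966. Both comparisons use the same 3 day0RT mice, whose dendritic libraries were all deeper than any treated one. A part of depth in these signs was not tested.

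**Figure D4:**
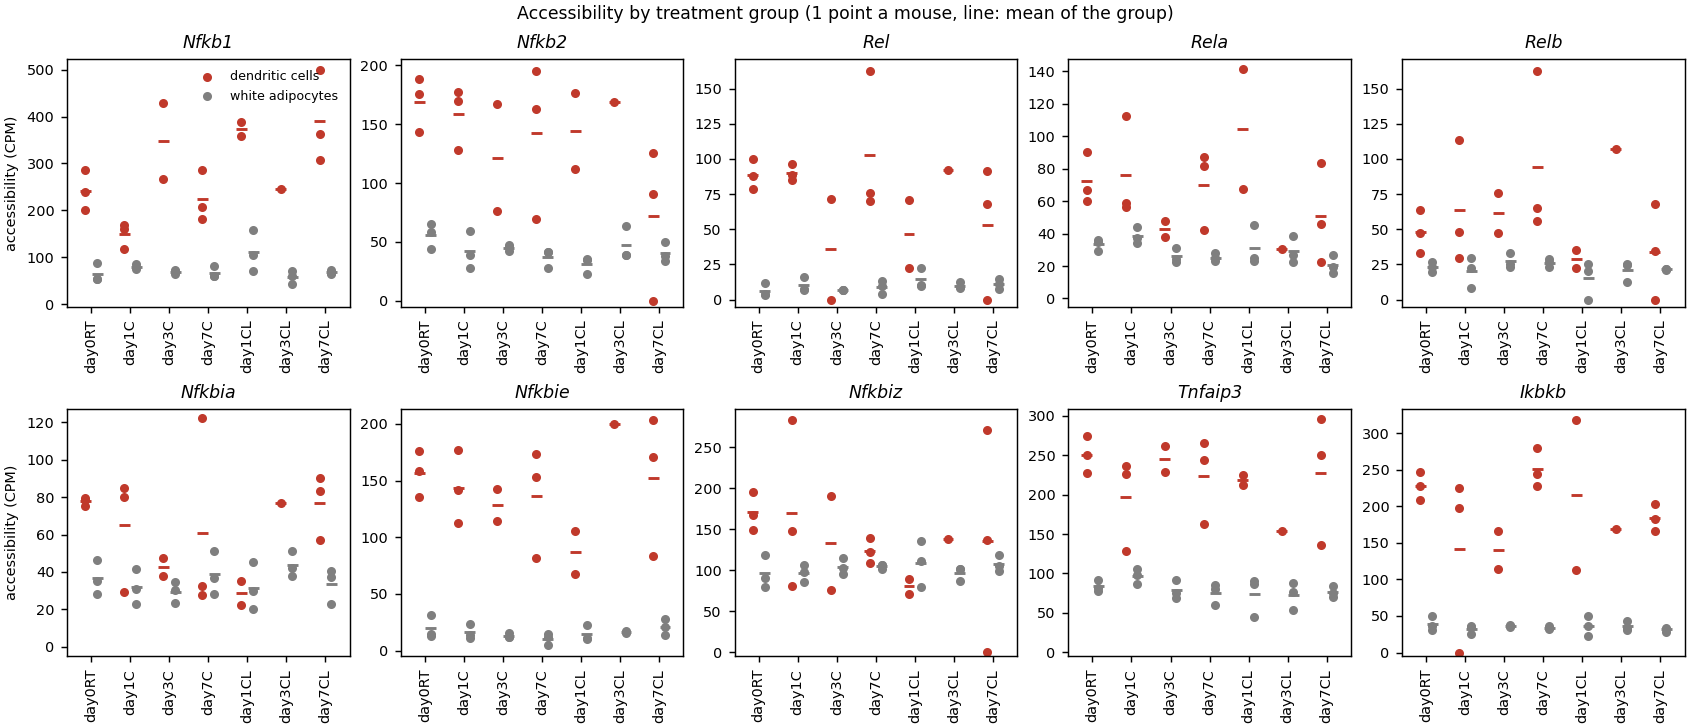
Accessibility in CPM (vertical axis) of the 10 genes in the 7 groups (horizontal axis), 1 point a mouse, in dendritic cells (red) and white adipocytes (grey), with lines at the group means. Dendritic cells of day3CL are 1 mouse. For Ikbkb the dendritic mice of day0RT lie between 209 and 247 CPM, inside the range of the treated mice.

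In macrophages 3592 genes and 6 members were tested, and no gene was called for cold (0%) or CL (0%) by edgeR or DESeq2. At an unadjusted p under 0.05 there were 145 and 196 genes by edgeR and 37 and 50 by DESeq2. The members ran from -0.19 to 0.08 for cold and from -0.28 to 0.04 for CL. In B cells all 10 members were tested, where 0.113% of genes were called for cold and 1.31% for CL, and the smallest p was that of Nfkb2 under CL (-0.26 ± 0.10, adjusted p = 0.175).

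In CD4 T cells 0.0104% of genes were called for cold and 0.0521% for CL, and in CD8 T cells 0.029% and 0.106%. Nfkbiz had the smallest p of the members in CD4 T cells under CL (0.32 ± 0.15, adjusted p = 0.420) and in CD8 T cells under cold (0.32 ± 0.12, adjusted p = 0.538). Both values were positive and neither was called.

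White adipocytes were the deepest cluster, with 44198 to 3655538 counts a library, and 1.27% of genes were called for cold and 5.83% for CL. The member nearest to a call was Rela under CL (-0.51 ± 0.20, adjusted p = 0.106). It had 34.9, 29.5 and 36.1 CPM at day0RT, 37.2, 34.5 and 44.2 CPM at day1C, 24.3, 22.2 and 31.2 CPM at day3C, 22.9, 24.8 and 27.8 CPM at day7C, 45.3, 25.0 and 23.3 CPM at day1CL, 38.3, 22.4 and 26.6 CPM at day3CL and 19.4, 26.9 and 15.7 CPM at day7CL. All 3 day7CL mice and all 3 day7C mice lay below all 3 day0RT mice, while 1 mouse each of day1CL and day3CL lay above them. Nfkb2 under CL was -0.39 ± 0.17, adjusted p = 0.173. With the 3 mice of few lymphocytes left out, no member was called in any of the 12 comparisons.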

How the data were processed

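Nuclei of whole frozen inguinal adipose tissue were profiled by combinatorial-indexing snATAC-seq. Per the study's methods, the authors aligned reads with Bowtie2 to mm10, kept mapping quality 30 or more, removed duplicates, called peaks with MACS2 for each initial cluster, merged them, and removed nuclei of low depth or few reads in peaks and predicted doublets. The deposited values are counts: the authors' matrix holds 1 where a nucleus has a read in a peak. A sum over a single peak counts nuclei, and several reads of a nucleus in a peak count once. In a sum over the peaks of a gene, a nucleus counts once for each peak with a read. The 4 samples are sequencing lanes that each hold nuclei of all mice, so mouse, group and cell type were read from the authors' deposited annotation.

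Peaks on the body of a gene and 2000 bases upstream (GENCODE coordinates, mm10) were summed per mouse and cluster, over libraries of at least 10 nuclei. Tests used edgeR 4.0.16 in R 4.3.3 with quasi-likelihood fits, TMM, a low-count filter (minimum count 10, total 15, proportion 0.7), a prior count of 2 and Benjamini-Hochberg adjustment at 0.05. Cell types were compared with the mouse as a block, and treatments by group within a cluster. Fitted fold changes are shrunken by the prior count and SE are not. Alternatives were DESeq2 1.42.0, other filters, library minimums, promoter peaks, day 0 alone and each mouse left out. The fits between clusters without a mouse kept the dispersion trend of all mice. For single features that passed the filter only through dendritic libraries, the text prints no fold change or p-value from the fit concerned. Their calls do enter the counts given with Rel, the counts given before their removal, and the counts under the alternatives. The plot of the members' log2 fold changes also shows Rel as called. The code was tested on simulated data. Mice are separate animals, 3 a group. In B cells, white adipocytes, macrophages, CD4 T cells and CD8 T cells, same-numbered mice of different groups correlated at -0.12 to 0.09 in their deviations. Dendritic cells were not part of this check. The authors report 3 batches of experiments done independently, and whether the replicate number marks a batch was not tested. The main treatment fits did not use the number as a block.

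The members and lists were chosen with earlier results of these data known. All 10 members are reported, with the 5 highest and 5 lowest log2 fold changes, by signed value, among called pathway genes, and the most similar gene for each member. For each member the tested peak with the smallest p and the peak at the gene start are given, and other peaks were chosen after their values were seen.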

Additional observations from a re-analysis of the deposited data

Results flagged for a closer look

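Tnfaip3 in vascular smooth muscle cells was 174.6 CPM in 1 of 10 mice, apart from the other 9 by more than Dixon's criterion allows, around a median of 42.5 CPM. That library, from a day3CL mouse among the 3 of few lymphocytes, held 10 nuclei, the minimum, and 17187 counts. The value therefore rests on very few counts. It was the only one among 10 such tests, and chance flags about 1 in 20 groups.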

How the results depend on the processing

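Of the comparisons' counts of members called, 112 values under the alternatives stayed within 1.5 times the value reported and 6 did not. Treatment comparisons, with 0 members called in the main fit and in every alternative, are among the 112. All 6 that moved were counts between clusters, so the 112 say little about how stable those are. With promoter peaks alone, 3 members were called against the other clusters and 0 against macrophages. With libraries of at least 5 nuclei 2 were called against macrophages, and with nuclei of at least 2000 counts 2 against macrophages and 2 member peaks against the other clusters. Over all genes, those higher and lower were 1033 and 1435 of 10645 against macrophages with at least 5 nuclei (2178 and 2238 against the other clusters), and 787 and 673 of 9932 with at least 2000 counts (1798 and 1387). Over all peaks with at least 2000 counts 550 and 182 of 6477 were higher and lower against the other clusters. A minimum count of 5 gave 18 member peaks called against the other clusters in place of 6, with 29 in place of 11 tested. Of the 18, 17 were higher and 1 lower. Without the peaks that passed only through dendritic libraries, 10 of 22 were higher and 1 lower. With the minimum count of 10 these were 5 of 10 and 0. With promoter peaks alone, Nfkb1 was -0.11 against the other clusters and -0.29 against lymphocytes, and Nfkbiz 0.54 against lymphocytes. With nuclei of at least 2000 counts Nfkbiz was -0.043 against the other clusters and -0.020 against macrophages. On day 0 alone Nfkb1 was -0.014 against macrophages, and Nfkbia there was -0.012 without the filter and -0.0061 with at least 5 nuclei. Without the 3 mice of few lymphocytes, an alternative chosen after seeing the data, Nfkb1 was -0.00081 and Nfkbia -0.051 against macrophages. The members called were then 6, 4 and 7 against the other clusters, macrophages and lymphocytes, where 2293 genes of 10448 were higher and 2027 lower, 1069 and 1240, and 2633 and 2807, with Nfkbia and Nfkbie losing a call and Nfkb2 and Nfkb1 gaining one. The cause of these shifts was not tested.

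These counts include Rel. Leaving out each mouse in turn, 6 to 7 members were called against the other clusters, 3 to 5 against macrophages, 6 to 7 against lymphocytes and 0 in the treatment comparisons. The genes called over all were 2088 to 2369 higher and 1904 to 2123 lower against the other clusters, 990 to 1162 and 1181 to 1415 against macrophages, and 2427 to 2866 and 2326 to 2942 against lymphocytes. Nfkbia ran from -0.10 to 0.089 and Nfkbiz from -0.010 to 0.15 against macrophages, and Nfkbiz from -0.056 to 0.12 against the other clusters. With the replicate number as a block, 0 members were called in the treatment comparisons. The block moved the genes called from 13 to 21 in B cells under cold and from 11 to 7 in CD8 T cells under CL. In dendritic cells 4 members passed the filter.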
